A study of Mus musculus with 4 samples.

Results

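Transcripts of 8 mucus proteins (Muc2, Tff3, Fcgbp, Clca1, Zg16, Agr2, Spink4 and Muc13) and of the fucosyltransferase gene Fut2 were followed in single cells of the mouse small-intestinal epithelium after irradiation. The 9 genes were taken by their symbols from the 32285 genes of the count tables, and all 9 had counts. No cut-off on a measured value was applied, but the set was chosen with earlier results of these data known. The epithelium came from 3 wild-type (WT) mice and 3 VilCreIfnlr1fl/fl mice (KO), in which Cre driven by the Villin promoter deletes the floxed receptor gene of interferon-λ, Ifnlr1, in intestinal epithelial cells. All 6 mice had received 11 Gy of gamma irradiation with the head, thorax and upper extremities shielded, and no unirradiated mouse was analysed here. Tissue was taken 96 h later by the series design and 3 days later by the protocol. Live cells carrying EPCAM and lacking CD45 were sorted, and each mouse had its own hashtag (1, 2 or 3), a streptavidin-borne barcode. The mice of a genotype were pooled into 1 library, so genotype and library cannot be told apart, and the p-values below compare mice within those pools.

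The mucus of the intestine is a gel built from the secreted mucin Muc2, which goblet cells store in granules. Fcgbp, Clca1, Zg16 and the trefoil peptide Tff3 are packed and secreted with it, Agr2 is a disulfide isomerase of the endoplasmic reticulum that Muc2 folding needs, and Spink4 is a small Kazal-type peptide of secretory cells. Muc13 is a mucin anchored in the membrane, found on enterocytes as well as goblet cells. Fut2 adds an α1,2-linked fucose to surface and mucin glycans, and the sugar feeds gut bacteria. Epithelial fucosylation through Fut2 is known to rise with inflammatory signals such as interleukin-22.

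All coordinates are in mm10. Muc2 lies at chr7:141690340-141754693 on the forward strand, Fcgbp at chr7:28071236-28120862 (forward), Zg16 at chr7:127050156-127087328 (reverse) and Fut2 at chr7:45648591-45666394 (reverse). Tff3 lies at chr17:31125306-31129646 (reverse), Clca1 at chr3:145003817-145032776 (reverse), Agr2 at chr12:35992907-36004087 (forward), Spink4 at chr4:40920052-40931395 (forward) and Muc13 at chr16:33794037-33819934 (forward). Gene models on the opposite strand overlap Zg16 (Gm44939) and Muc13 (Gm15657), and whether strand was used in counting is not given in the sources used here. RefSeq promoter sequences (GRCm38.p6) were at hand for 4 of the 9 genes: Muc2, Fcgbp, Agr2 and Muc13, the last with 2 start sites. The 250 bases before the start are shown for 2 genes that shared their pattern over the clusters, Muc2 (chr7:141690090-141690339) and Fcgbp (chr7:28070986-28071235), and for Muc13 (chr16:33793787-33794036), which had another pattern. Capitals mark CAGCTG, an E-box, in Muc2 and Fcgbp, and TTCNNNGAA, a STAT-type motif, in Muc13.
Muc2: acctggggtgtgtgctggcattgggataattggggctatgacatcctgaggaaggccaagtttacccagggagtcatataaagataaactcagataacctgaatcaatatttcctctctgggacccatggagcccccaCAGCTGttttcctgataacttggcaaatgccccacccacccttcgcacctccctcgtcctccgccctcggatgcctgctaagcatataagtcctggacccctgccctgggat
Fcgbp: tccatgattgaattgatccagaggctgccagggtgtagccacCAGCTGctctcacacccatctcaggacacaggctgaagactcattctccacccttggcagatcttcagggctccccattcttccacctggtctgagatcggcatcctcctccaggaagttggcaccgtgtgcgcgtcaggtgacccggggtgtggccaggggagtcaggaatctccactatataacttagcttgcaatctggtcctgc
Muc13: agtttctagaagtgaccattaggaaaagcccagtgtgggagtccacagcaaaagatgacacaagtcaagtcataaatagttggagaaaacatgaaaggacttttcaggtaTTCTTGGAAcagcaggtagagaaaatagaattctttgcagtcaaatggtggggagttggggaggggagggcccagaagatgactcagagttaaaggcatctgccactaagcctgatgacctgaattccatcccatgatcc

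Motifs were searched on both strands. The E-box CAGCTG stands 112 bases before the start of Muc2 (position -112) and at -208 in Fcgbp, and 13.001% of 32851 promoter windows of that length hold it. The window of Agr2, whose pattern over the clusters also lay close to that of Muc2 (Pearson correlation 0.926), does not hold it. Neither do the windows of Muc13. The Muc2 window also holds TATAAA at -174 (12.4% of windows) and GATAA at 4 positions (22.6% of windows), where the TATAAA and the GATAA at -168 do not share bases. TTCNNNGAA begins at -140 in the Muc13 window shown and is in 7.02% of windows. The window of the other Muc13 start site (chr16:33794239-33794488) and those of Muc2, Fcgbp and Agr2 do not hold it. TTTATTG and GTAAACA were found in none of the windows of these 4 genes. A match is a description of letters, not of binding.

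After filters on depth and mitochondrial share, 5563 of 10453 WT barcodes and 4028 of 7370 KO barcodes were kept. Hashtags assigned 2777 WT cells and 2900 KO cells to a mouse, between 807 and 1064 a mouse. The main hashtag rule called 40.4% of the kept WT barcodes and 21.0% of the kept KO barcodes negative. Negative here means under the cut-off of that rule, not without hashtag counts. An alternative rule on the ratio of hashtag counts assigned 7108 cells to a mouse, beside 5677 by the main rule. The libraries shared 28 barcodes, 9 of them kept. Counts are of unique molecular identifiers (UMIs, 1 per captured transcript 3′ end), summed per mouse and class and scaled to a sum of 1000000 (CPM). A 3′ count is taken not to grow with transcript length, and levels of different genes are set side by side on that premise. Whether reads in introns were counted is not given, and their part in the order of genes was not tested. The 24 clusters, built without the 9 genes, gave 746 goblet-like, 6214 enterocyte-like and 213 Paneth-like cells by markers that exclude the 9 genes, where the fixed goblet markers summed to between 3281 and 3766 CPM in goblet-like cells and between 20.3 and 40.8 CPM in enterocyte-like cells of each mouse. The mice with hashtag 2 stood apart, since cluster 14, the enterocyte-like cluster of highest depth (median 59447 UMIs), held 74 cells of WT2, 139 of KO2 and at most 2 of any other mouse. Ifnlr1 itself was counted at 36.5, 25.5 and 35.8 CPM in enterocyte-like cells of WT1 to WT3 and at 40.7, 23.4 and 32.6 CPM in KO1 to KO3. A 3′ end outside the deleted part checks nothing, and the labels do not say which part is deleted. The interferon-stimulated gene Rsad2 was at a mean of 18.8 CPM in WT and 2.57 CPM in KO goblet-like cells (CPM after TMM scaling, edgeR adjusted p = 0.000467). This is 1 gene in 1 class, and in enterocyte-like cells edgeR called 0 of 10619 genes in the fit by genotype alone.

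Of these 3 classes, Muc2, Tff3, Fcgbp, Clca1 and Zg16 were highest in goblet-like cells, Spink4 in Paneth-like cells and Muc13 in enterocyte-like cells, in CPM in each mouse. Fut2 was higher in enterocyte-like than in Paneth-like cells in 4 mice, and lower in WT2 (35.8 against 77.0 CPM) and KO2 (18.9 against 36.0 CPM). The median share of a gene's UMIs that lay in goblet-like cells over the 6 mice was 92.4% for Zg16, 91.5% for Clca1, 89.0% for Fcgbp, 87.3% for Muc2 and 84.7% for Tff3. Goblet-like cells made up a median of 12.0% of the cells. Agr2 was divided, with 57.5% of its UMIs in goblet-like and 39.0% in Paneth-like cells, and its level was 6608 ± 759 CPM in the former and 7599 ± 1593 CPM in the latter in WT mice (SD, n = 3). For Spink4 the order was turned, with 70.1% in Paneth-like and 23.7% in goblet-like cells, except in WT3, with 33.9% and 61.2%. Its level in Paneth-like cells was 25418, 19876 and 28395 CPM in WT1 to WT3 and 25777, 23143 and 25151 CPM in KO1 to KO3. These Paneth-like values rest on 10, 51 and 4 WT cells and on 21, 44 and 22 KO cells, so no genotype test was made. Muc13 had 79.4% and Fut2 86.4% of their UMIs in enterocyte-like cells, a class that held a median of 74.5% of the cells. For Fut2 that share was lowest in WT2, at 53.8% beside 64.4% of the cells, where Paneth-like cells held 34.3% of its UMIs, and in KO2 Paneth-like cells held 20.3%.

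**Figure D1:**
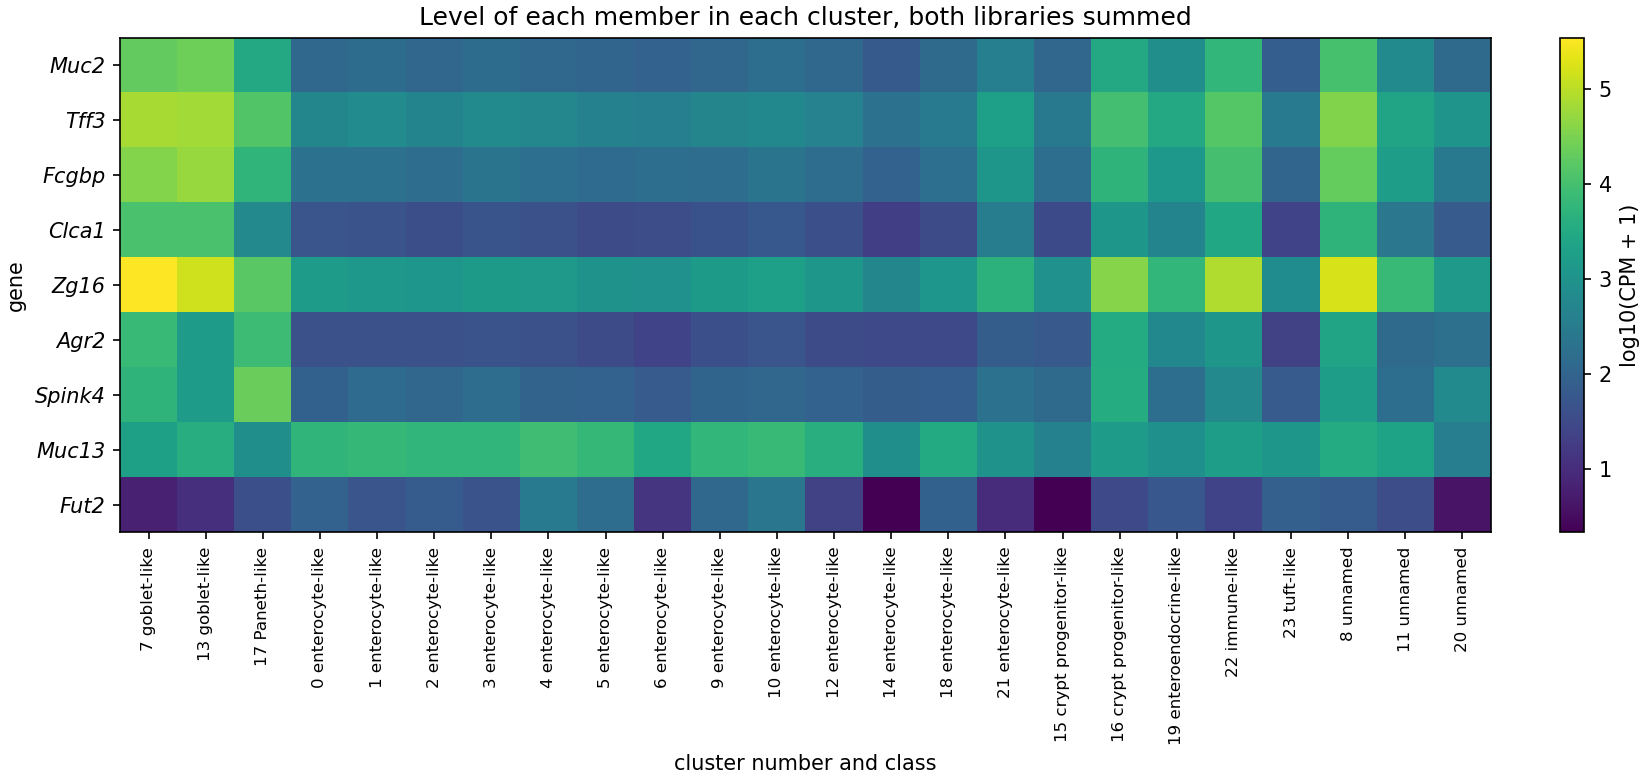
Level of each gene (rows) in each of the 24 clusters (columns, grouped by class), both libraries summed, as log10(CPM + 1). Zg16 reached 349280 CPM in goblet-like cluster 7, Spink4 was highest in Paneth-like cluster 17 at 22914 CPM, and Fut2 was highest in enterocyte-like cluster 4 at 306 CPM.

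Within goblet-like cells the 8 mucus genes together took between 43.7% and 50.5% of all UMIs of a mouse. Zg16, a lectin that binds the walls of Gram-positive bacteria, was the most abundant of them in every mouse, followed by Tff3, Fcgbp, Muc2 and Clca1, in that order in all 6 mice. Agr2 stood above Spink4 in 5 of 6 mice and below it in KO3, and the neighbours Agr2 and Spink4 did not differ beyond the spread of the KO mice (5631 ± 692 and 5561 ± 1571 CPM, SD, n = 3). Muc13 was at 2198 ± 211 CPM in WT and Fut2 at 7.48 ± 0.761 CPM (SD, n = 3), the lowest level of the 9.

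Goblet-like cells fell into 2 clusters that differed in depth and in these genes. Cluster 7 had 454 cells with a median of 31434.5 UMIs and cluster 13 had 292 cells with a median of 8926. Zg16 was at 349280 CPM in cluster 7 and 149780 CPM in cluster 13, Agr2 at 6985 and 1612 CPM, and Spink4 at 5409 and 1571 CPM. Fcgbp went the other way, at 37979 CPM in cluster 7 and 54329 CPM in cluster 13, as did Muc2 at 19760.3 and 24536 CPM and Muc13 at 1944 and 3721 CPM. Tff3 (72139 and 66558 CPM) and Clca1 (11074 and 11025 CPM) lay closer together. CPM is a share of all UMIs, so the larger share of Zg16 in cluster 7 lowers the CPM of every other gene there. The order of the clusters for the other genes without Zg16 in the sum was not computed. After thinning to 2000 UMIs, on log2(UMIs + 1), across 266 of the hashtagged cells of cluster 13 (those with enough UMIs), pairs among Muc2, Tff3, Fcgbp, Clca1 and Zg16 had Pearson correlations between 0.611 and 0.878, and across the 440 cells of cluster 7 between -0.158 and 0.388. These cells share library, depth range and ambient RNA, so the correlations are descriptions only. In both clusters cells of all 6 mice were present, from 48 to 84 a mouse in cluster 7 and from 25 to 55 in cluster 13.

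Between genotypes, none of the 9 genes passed the test in goblet-like cells, where edgeR called 166 of 8659 genes (1.92%, adjusted p under 0.05). The members are all among the genes tested. Muc2 was at 17654, 18858 and 20632 CPM in WT1 to WT3 and at 22897, 22494 and 21348 CPM in KO1 to KO3. Tff3, the trefoil peptide, was at 65894, 60502 and 64524 CPM in WT against 80327, 79365 and 74981 CPM in KO mice. Fcgbp, which is covalently linked into the mucin gel, was at 35057, 39578 and 37132 CPM in WT against 45988, 46241 and 42861 CPM in KO mice. On this plain scale all KO mice lay above all WT mice for these 3 genes, against 11.7% of all genes tested in that direction and 5.42% in the other. On the scale of the test, which divides by TMM factors of 0.878 to 1.115, none of the 3 kept the groups apart. The log2 fold changes of KO over WT were 0.11 (SE 0.19) for Muc2, 0.18 (SE 0.22) for Tff3 and 0.17 (SE 0.20) for Fcgbp, with edgeR adjusted p of 0.847, 0.780 and 0.770. Plain CPM is a share of all UMIs, of which Zg16 alone took between 276960.0 and 364440.3 CPM.

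Zg16 was at 364440.3, 292585 and 349186 CPM in WT1 to WT3 and at 292949, 300463 and 276960.0 CPM in KO1 to KO3. WT1 and WT3 lay above all KO mice, and WT2 fell among them. Its log2 fold change was -0.34 (SE 0.28, edgeR adjusted p = 0.643). Agr2 was at 6618, 7361 and 5844 CPM in WT against 4904, 6282 and 5708 CPM in KO mice, which overlap. After TMM scaling it was the only 1 of the 9 whose groups did not overlap, with all KO mice lower, against 9.05% of all genes tested in that direction and 8.65% in the other. Its log2 fold change was -0.34 (SE 0.17, edgeR adjusted p = 0.401). Leaving out both mice with hashtag 2 brought Zg16 (-0.55, adjusted p = 0.0259) and Agr2 (-0.47, adjusted p = 0.0463) under the threshold in edgeR, where 5.80% of genes were called. Without WT2 alone Zg16 was called as well (-0.51, edgeR adjusted p = 0.00580). Over the 18 alternatives the edgeR or DESeq2 adjusted p ran from 0.00580 to 0.999 for Zg16 and from 0.00835 to 0.999 for Agr2, and both log2 fold changes were below 0 in all 18.

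Spink4 varied most between mice of 1 genotype among the 8 mucus genes. It was at 2513, 5646 and 4042 CPM in WT1 to WT3 and at 4038, 5469 and 7176 CPM in KO1 to KO3, with overlap (log2 fold change 0.37, SE 0.23, edgeR adjusted p = 0.513). The Paneth marker list, whose cells carry most Spink4, summed to between 1211 and 5239 CPM in WT and between 1852 and 2083 CPM in KO goblet-like cells, with at most 2 of its 12 genes at 0 in a mouse. Its part in the Spink4 values was not tested. Clca1, a secreted protease that acts on the Muc2 gel, was at 11010, 10167 and 11644 CPM in WT against 11164, 11562 and 10751 CPM in KO mice. Muc13 was at 1989, 2411 and 2195 CPM in WT against 2224, 2212 and 2505 CPM in KO mice. Both sets of values overlap, with log2 fold changes of -0.09 (SE 0.19) and -0.03 (SE 0.14) and edgeR adjusted p of 0.872 and 0.942. Fut2 was counted in goblet-like cells with 7 to 26 UMIs a mouse, a level of 2.28 to 8.20 CPM (log2 fold change -0.68, SE 0.38, edgeR adjusted p = 0.452). Without the 5% of cells of highest UMI count the log2 fold change of Fut2 was -2.20 (edgeR adjusted p = 0.0361), in a fit that called 140 of 8266 genes. That cut was uneven. It left 113 of 129, 73 of 73 and 90 of 122 goblet-like cells of WT1 to WT3. Of KO1 to KO3 it left 116 of 122, 130 of 130 and 124 of 132. With at most 26 Fut2 UMIs a mouse before the cut, this value rests on few UMIs. Goblet-like cells made up 11.8 ± 3.66% of the cells of WT and 13.5 ± 2.503% of KO mice (SD, n = 3 each, 2-sided exact permutation p = 0.4, where 0.1 is the smallest that 3 against 3 mice allow).

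**Figure D2:**
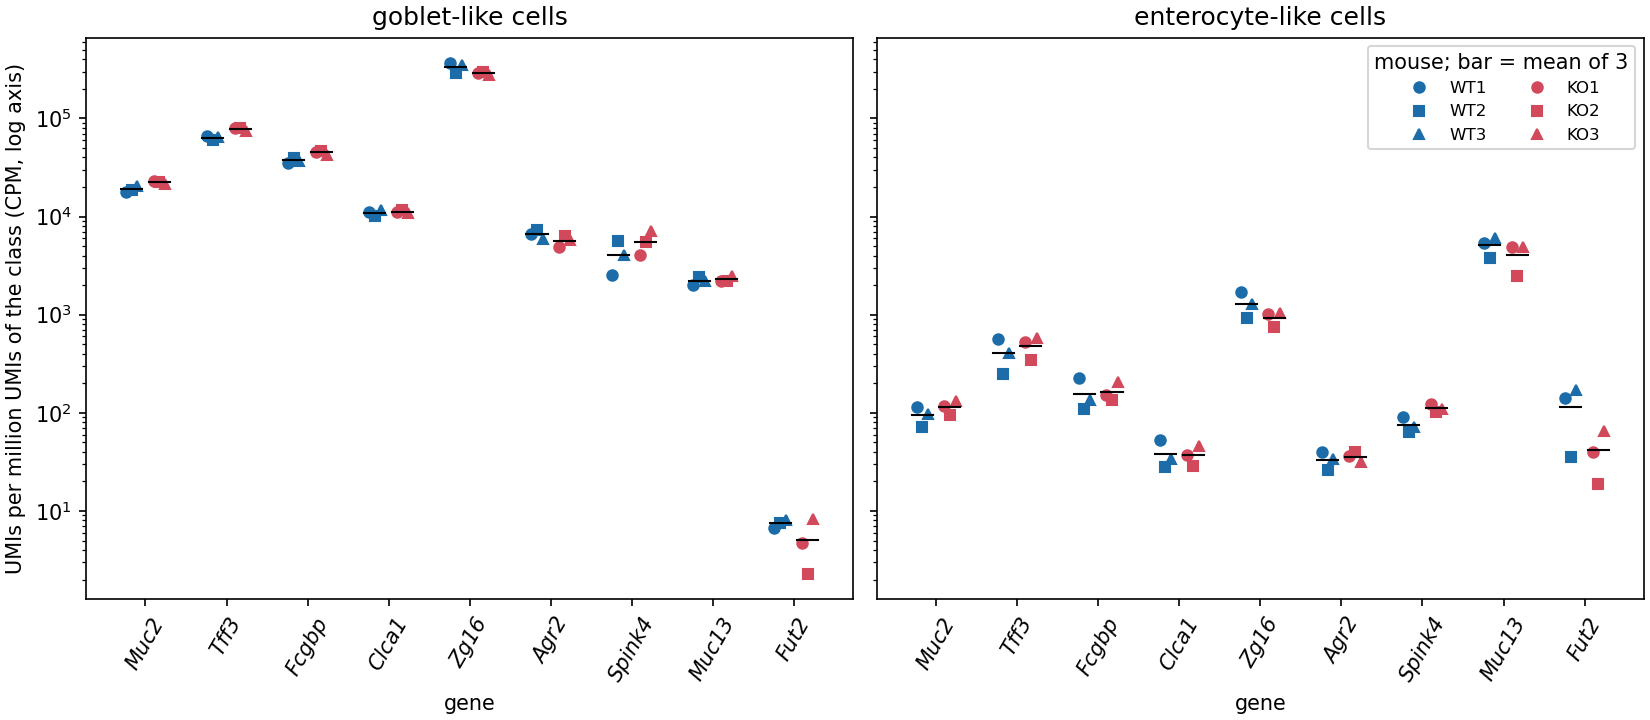
Level of each gene in goblet-like cells (left) and enterocyte-like cells (right), in CPM on a log axis, with 1 point per mouse and a bar at the mean of the 3 mice. In goblet-like cells Spink4 spans 2513 to 7176 CPM and the KO points of Muc2, Tff3 and Fcgbp lie above the WT points, which the scale of the test did not keep, and in enterocyte-like cells Fut2 spans 18.9 to 169 CPM.

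Other genes of the mucus pathway are read beside the 1.92% of all genes called in goblet-like cells. Of the 10 other secreted mucus proteins tested, 2 were called: Clca4a, a relative of Clca1, was lower in KO (log2 fold change -1.002, SE 0.19, edgeR adjusted p = 0.0117), and the lectin Reg4 was higher (1.13, SE 0.24, adjusted p = 0.0305). The list's median log2 fold change was 0.20, beside 0.01 over all genes tested. Clca4a is also among the leading genes of enterocyte-like cluster 0 (771 WT and 55 KO cells). The part of RNA from such cells in its goblet-like values was not tested. None of the 25 genes of mucin glycosylation tested, none of 11 genes of fucosylation, none of 5 other mucins and none of 33 genes of the goblet secretory programme were called, with medians of 0.00, -0.12, -0.12 and -0.06. Gcnt3, which makes branched O-glycan cores, was at a mean of 464 CPM in WT against 373 CPM in KO goblet-like cells after TMM scaling (log2 fold change -0.31, edgeR adjusted p = 0.339), and the transcription factor Klf4 at 731 against 714 CPM (-0.03, adjusted p = 0.938). Of 13 goblet markers tested, Capn8 alone was called (-0.60, SE 0.13, edgeR adjusted p = 0.0340). Markers of other classes were called in these cells as well: 3 of 13 enterocyte markers (Fabp1, Lct and Sis) and 3 of 9 Paneth markers (Defa21, Defa22 and Defa30) were higher in KO, as was Gip among 4 enteroendocrine markers. The median log2 fold change was 0.01 over the enterocyte list and -0.37 over the Paneth list. The enterocyte list summed to between 3108 and 4407 CPM in WT and between 3350 and 4484 CPM in KO goblet-like cells, and its part in the results was not tested.

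In enterocyte-like cells the goblet genes were present at a low level. Muc2 was at 0.383% to 0.644% of its goblet-like level over the 6 mice, Tff3 at 0.416% to 0.867%, Fcgbp at 0.277% to 0.651%, Clca1 at 0.247% to 0.479%, Zg16 at 0.248% to 0.463% and Agr2 at 0.358% to 0.740%. Spink4 was at 1.12% to 3.60%. Muc13 and Fut2 behaved otherwise, at 111% to 274% and at 470% to 2128% of the goblet-like level. Absolute levels ranged from 26.3 CPM (Agr2 in WT2) to 1687 CPM (Zg16 in WT1) for the 7 genes. RNA free in the suspension gives such counts in cells that do not express a gene, and its part here was not tested.

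Fut2 was the member with the largest genotype difference in enterocyte-like cells. It was at 142, 35.8 and 169 CPM in WT1 to WT3 and at 40.0, 18.9 and 65.6 CPM in KO1 to KO3, or 826, 366 and 1580 UMIs against 367, 308 and 551. WT1 and WT3 lay above all KO mice, whereas WT2 lay below KO1 and KO3. The means were 116 ± 70.5 CPM in WT and 41.5 ± 23.3 CPM in KO (SD, n = 3). The log2 fold change was -1.69 (SE 0.73), which did not pass the test (edgeR adjusted p = 0.912), and edgeR called 0 of 10619 genes in this fit (372 at an unadjusted p under 0.05, and 51 genes called by DESeq2). Mice of the same hashtag number deviated together in these cells, but so did WT1 with KO3 and WT3 with KO1. Deviations from a group mean cancel out over its mice, so WT2 and KO2 standing apart can alone give such correlations. Those among WT1, WT3, KO1 and KO3 therefore do not show pairing by number, and calls with the block rest on that choice. The labels state no pairing, so a block by hashtag number was chosen from these data. With that number as a replicate block Fut2 was lower in KO (-1.55, SE 0.18, edgeR adjusted p = 0.00106). The block called 7.90% of genes lower and 10.3% higher. With the block and without both mice of hashtag 1, 2 or 3 in turn, the log2 fold change was -1.33, -1.81 and -1.51, with edgeR adjusted p of 0.00797, 0.000164 and 3.80e-13. These fits hold 2 mice per genotype, so their p-values rest largely on the spread shared over all genes and not on these mice. Without the block but without both mice with hashtag 2 the log2 fold change was -1.78 (edgeR adjusted p = 0.00520, 9.70% of genes called). It was called under 6 of 20 alternatives and was below 0 in all 20, with edgeR or DESeq2 adjusted p from 3.80e-13 to 1.

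In cluster 14, which held mostly cells of the mice with hashtag 2, Fut2 was at 1.17 CPM. Without it, Fut2 was at 142, 58.5 and 170 CPM in WT1 to WT3 and at 40.0, 42.8 and 66.5 CPM in KO1 to KO3. WT2 then lay below KO3 alone. The log2 fold change was -1.50 (SE 0.41, edgeR adjusted p = 0.111, 1.54% of genes called), and with the block -1.39 (SE 0.24, adjusted p = 0.0147). This alternative was chosen after seeing the data.

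The share of enterocyte-like cells with a Fut2 UMI was also highest in WT1 and WT3. After each cell was thinned to 2000 UMIs, 24.3%, 10.3% and 27.6% of cells of WT1 to WT3 and 8.79%, 7.21% and 11.4% of cells of KO1 to KO3 held at least 1. The lowest WT mouse was thus below the highest KO mouse, with exact 95% intervals of 7.87% to 13.1% and 8.98% to 14.2% that cover counting error only. Thinning left out 14 to 20 cells of each WT mouse and 5 to 8 of each KO mouse. Before thinning the shares were 51.0%, 28.8% and 54.0% in WT and 22.1%, 22.1% and 30.5% in KO, at median depths of 8213 to 11525 UMIs. In goblet-like cells, which had median depths of 21792.5 to 29457 UMIs, the thinned share was 1.72% of 348 WT and 0.513% of 390 KO cells.

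The enterocyte-like class is made of 13 clusters, and the genotypes filled them unequally. Clusters 0, 9, 10 and 4 held 771, 389, 336 and 496 WT cells against 55, 20, 46 and 117 KO cells, and clusters 1, 3 and 5 held 67, 116 and 129 WT cells against 731, 517 and 360 KO cells. Fut2 was highest in cluster 4 (306 CPM over both libraries), whose leading genes were the oxidase genes Duoxa2 and Duox2 and the nitric oxide synthase gene Nos2, and next in cluster 10 (234 CPM), led by Nos2 and B3galt5. Cluster 5 was at 155 CPM and cluster 9 at 116 CPM. At the low end were cluster 6 at 12.2 CPM, cluster 21 at 8.93 CPM and cluster 14 at 1.17 CPM. How far this filling moved the class value was not tested, and 3 clusters had at least 20 cells of every mouse.

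Within cluster 2, Fut2 was at 94.6, 63.2 and 153 CPM in WT1 to WT3 and at 33.1, 21.5 and 59.0 CPM in KO1 to KO3, with no overlap. These values rest on 36 to 114 UMIs in WT and on 16 to 84 UMIs in KO mice. The 95% intervals of counting error of WT2 (44.3 to 87.5 CPM) and KO3 (47.1 to 73.1 CPM) overlap. The share of all genes without overlap in this cluster was not computed. In cluster 12 Fut2 was at 63.4, 15.3 and 25.5 CPM in WT against 6.72, 20.3 and 16.0 CPM in KO mice, with overlap, on 4 to 22 UMIs. Cluster 6 gave 20.6, 11.0 and 47.2 CPM in WT against 3.002, 11.4 and 2.96 CPM in KO mice, where KO2 lay above WT2. In cluster 4, where KO1 had 19 cells, Fut2 was at 344, 166 and 391 CPM in WT against 127, 172 and 188 CPM in KO mice, so that WT2 again fell among the KO mice. No test was made inside clusters. In Paneth-like cells Fut2 was at 21.6, 77.0 and 83.4 CPM in WT against 8.85, 36.0 and 13.3 CPM in KO mice, which overlap.

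**Figure D3:**
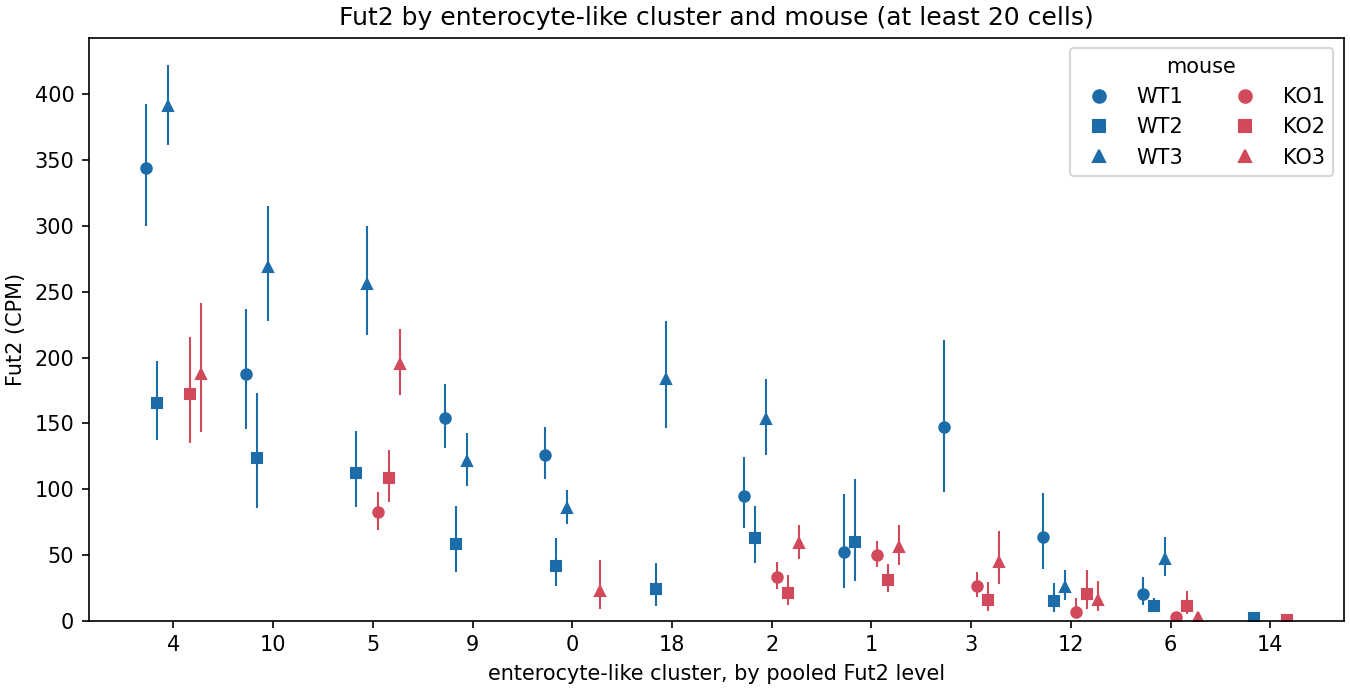
Fut2 level (CPM) in each enterocyte-like cluster for every mouse with at least 20 cells there, with exact 95% Poisson intervals for counting error. Clusters run from the highest pooled level (cluster 4, 306 CPM) to the lowest (cluster 14, 1.17 CPM). In cluster 2 all WT mice lie above all KO mice, though the intervals of WT2 and KO3 overlap.

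Muc13 was detected in nearly all enterocyte-like cells. It was at 5431, 3788 and 6019 CPM in WT1 to WT3 and at 4933, 2458 and 4865 CPM in KO1 to KO3. The mice with hashtag 2 were lowest in each genotype, and the groups overlap. The log2 fold change was -0.49 (SE 0.43, edgeR adjusted p = 0.912), and with the block Muc13 was lower in KO (-0.52, SE 0.13, adjusted p = 0.0236). That call was lost with the block when both mice with hashtag 3 were left out (-0.51, edgeR adjusted p = 0.125) and when cluster 14 was left out (-0.37, adjusted p = 0.0730). Cluster 14 had 843 CPM of Muc13, beside 8669 CPM in cluster 4. Within cluster 2 Muc13 was at 5039, 6600 and 5814 CPM in WT against 5244, 5894 and 6093 CPM in KO mice, with overlap. After thinning, between 90.8% and 100% of enterocyte-like cells of each mouse held a Muc13 UMI.

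Of the other members in enterocyte-like cells, Zg16 and Spink4 were called with the block. Zg16 was at 1687, 933 and 1273 CPM in WT1 to WT3 and at 1012, 746 and 1040.5 CPM in KO1 to KO3, with WT2 below KO1 and KO3. Its log2 fold change was -0.66 (SE 0.36, edgeR adjusted p = 0.912), while the block gave -0.61 (SE 0.14, adjusted p = 0.0154). The call was lost with the block when both mice with hashtag 1 were left out (-0.48, edgeR adjusted p = 0.0813). As a percent of the goblet-like level of the same mouse Zg16 was at 0.463, 0.319 and 0.365 in WT and 0.346, 0.248 and 0.376 in KO mice, which overlap. Spink4 was at 90.5, 63.4 and 71.3 CPM in WT against 122, 102 and 109 CPM in KO mice, all KO mice higher (7.79% of genes tested on plain CPM). On the scale of the test the Spink4 groups overlap, and no member had groups without overlap there (4.31% of genes tested lower and 4.0% higher in KO). Its log2 fold change was 0.39 (SE 0.23, edgeR adjusted p = 0.912), while the block gave 0.42 (SE 0.12, adjusted p = 0.0419). It was above 0.05 with the block when the mice of hashtag 1, 2 or 3 were left out (edgeR adjusted p = 0.0745, 0.124 and 0.0987). The Paneth marker list, with all 12 genes detected, summed to 345, 238 and 319 CPM in WT and 789, 524 and 686 CPM in KO enterocyte-like cells, and its part in the Spink4 values was not tested.

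For Muc2, Tff3, Fcgbp, Clca1 and Agr2 no fit reached the threshold in enterocyte-like cells. Without the block and with all mice their log2 fold changes lay between -0.23 and 0.10, with edgeR adjusted p between 0.912 and 0.978. With the block, 3 of the 9 members were thus lower and 1 was higher in KO, beside 7.90% and 10.3% of all genes tested. The test of whether the genotype difference itself differed between goblet-like and enterocyte-like cells called 0 of 10564 genes in edgeR (237 at an unadjusted p under 0.05, and 0 with limma voom, 259 unadjusted). For Fut2 the difference between the classes was 0.76 on the log2 scale (edgeR adjusted p = 1).

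**Figure D4:**
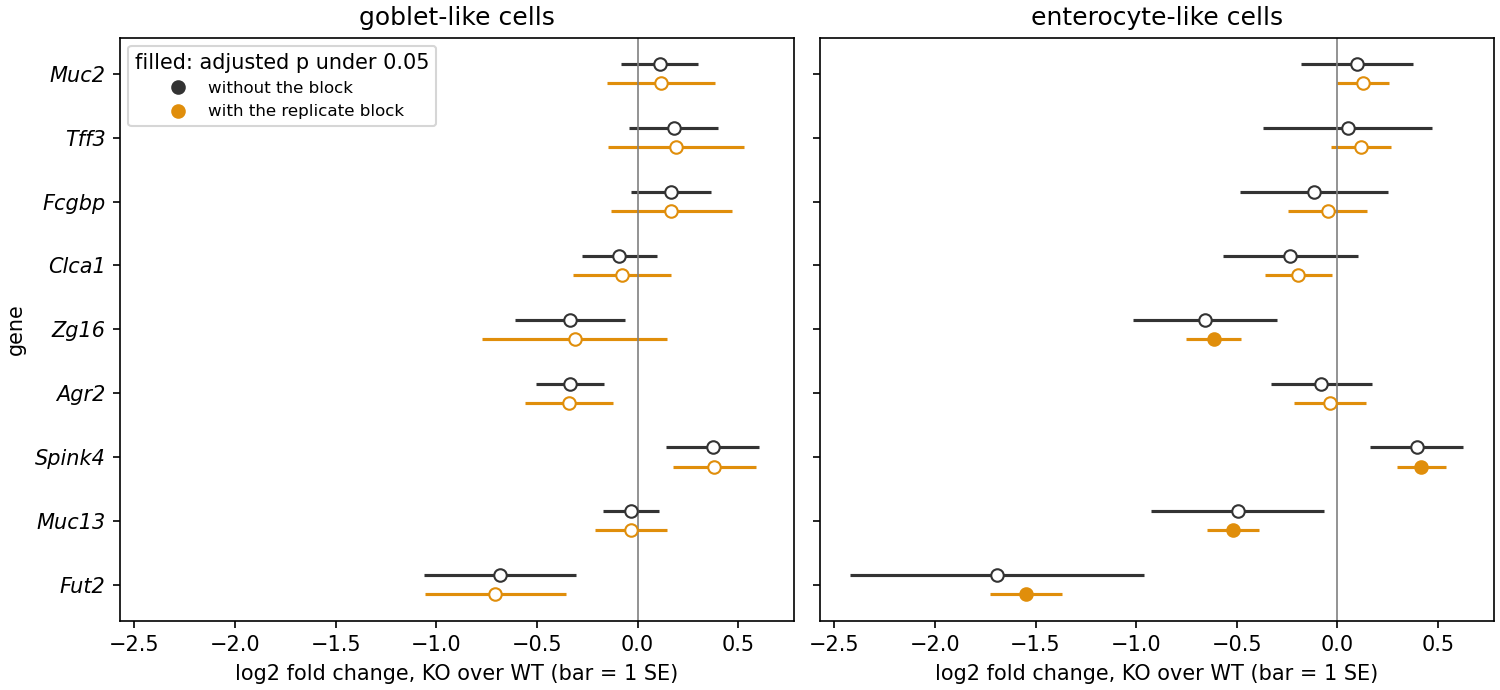
Log2 fold change of KO over WT for each gene in goblet-like (left) and enterocyte-like cells (right), with bars of 1 SE, in edgeR without and with the replicate block. Filled points have an adjusted p under 0.05, which Zg16, Spink4, Muc13 and Fut2 reach in enterocyte-like cells with the block.

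Some genes that build and cap mucin glycans were called in enterocyte-like cells with the block. Of 24 genes of mucin glycosylation tested 8 were lower and 0 higher in KO, beside 7.90% and 10.3% of all genes, and 16 were not called. The 5 of largest change were Gcnt1 (log2 fold change -1.66, SE 0.33, edgeR adjusted p = 0.0107), B3galt5 (-1.60, SE 0.19, 0.00131), Gcnt3 (-1.44, SE 0.20, 0.00257), B3gnt7 (-0.93, SE 0.16, 0.00574) and Slc26a2 (-0.81, SE 0.18, 0.0142). Gcnt1 and Gcnt3 make branched core structures of O-glycans, B3galt5 adds a galactose that later fucosylation uses, and Slc26a2 carries sulfate. The list's median was -0.14, beside 0.06 over all genes tested. None of them passed without the block, where their edgeR adjusted p was 0.912. The immune marker list summed to 94.1, 257 and 257 CPM in WT1 to WT3 and to 18.4, 4.12 and 10.8 CPM in KO1 to KO3 in these cells, with 7 to 9 of its 14 genes at 0 in a mouse. Of that list Cd74 alone passed the filter on low counts, so the sum cannot show whether immune cells were present. The part of the list in the results of enterocyte-like cells was not tested.

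Among 5 other mucins and mucin-like cadherins tested, Muc3a (-0.80), Muc4 (-0.79) and Cdhr2 (-0.45) were lower in KO with the block (edgeR adjusted p = 0.00378, 0.0347 and 0.0332), and 0 were higher. Muc3a and Muc4 are membrane mucins, and Cdhr2 links microvilli of the brush border. Of 10 other secreted mucus proteins, Clca3b (-1.74) and Clca4a (-0.85) were lower and Reg4 (1.36) was higher (edgeR adjusted p = 0.0246, 0.00394 and 0.0110). Of 11 other genes of fucosylation Fut8, which adds core fucose to N-glycans, was higher (0.96, SE 0.23, edgeR adjusted p = 0.0223), and none was lower. In the goblet secretory programme 5 of 27 genes were higher and 1 was lower. The higher ones of largest change were the inflammasome gene Nlrp6 (1.14) and the chaperone genes Pdia6 (1.01), Pdia4 (0.79) and Sdf2l1 (0.77), with edgeR adjusted p of 0.00532, 0.00479, 0.0147 and 0.00773, and the lower one was the transcription factor Klf4 (-0.66, adjusted p = 0.0114). None of these genes passed without the block.

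The crypt gates, which take Olfm4 (a gene of crypt base cells) or a sum of 8 cycling genes, held cells of few mice. Of hashtagged cells the Olfm4 gate held 46 of WT2, 62 of KO2 and 1 of WT3, and the cycling gate held 55 of WT2, 107 of KO2 and at most 1 of any other mouse. With 1 mouse per genotype no test was possible, and the values below carry exact 95% Poisson intervals of counting error. In the Olfm4 gate Muc2 was at 99.7 CPM (87.2 to 113) in WT2 against 59.7 CPM (52.5 to 67.7) in KO2. Agr2 was at 43.1 CPM (35.0 to 52.5) and 117 CPM (107 to 128), and Spink4 at 69.2 CPM (58.9 to 80.9) and 342 CPM (325 to 361). Muc13 was at 590 CPM (559 to 623) and 276 CPM (260 to 292), under the enterocyte-like level of the same mice. Fut2 was counted with 9 UMIs in WT2, 3.92 CPM (1.79 to 7.44), and 5 UMIs in KO2, 1.22 CPM (0.397 to 2.86).

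The cycling gate gave other values for the goblet genes. Zg16 was at 4256 CPM (4177 to 4335) in WT2 against 1332 CPM (1308 to 1357) in KO2, and Muc2 at 286 CPM (266 to 308) and 150 CPM (142 to 159). Spink4 turned its order between the gates, at 164 CPM (149 to 181) in WT2 against 79.8 CPM (74.0 to 86.0) in KO2 here, and so did Agr2, at 169 CPM (153 to 185) and 46.1 CPM (41.7 to 50.8). Muc13 was at 660 CPM (629 to 692) and 380 CPM (367 to 393), and Fut2 at 4.20 CPM (2.10 to 7.52) and 0.344 CPM (0.071 to 1.004) on 11 and 3 UMIs. With stricter gates (30 and 15 per 10000 UMIs in place of 10 and 5) Spink4 was at 61.4 CPM in WT2 against 339 CPM in KO2 in the Olfm4 gate and at 128 and 82.5 CPM in the cycling gate. The 2 crypt progenitor-like clusters were filled unequally. Cluster 16 held 22 cells of WT2 and 4 of KO2, at 39770 CPM of Zg16 over both libraries. Cluster 15 held 79 and 164 cells, at 955 CPM. How far the make-up of the gates moved the values of WT2 and KO2 was not tested.

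Across the 24 clusters, with both libraries summed, the secreted goblet genes had nearly 1 pattern. On log2(CPM + 10), Muc2 had Pearson correlations of 0.995 with Fcgbp, 0.991 with Clca1, 0.991 with Tff3, 0.9903 with Zg16, 0.926 with Agr2 and 0.826 with Spink4. Its correlation was -0.131 with Muc13 and -0.251 with Fut2, while Muc13 and Fut2 had 0.706. Among 4385 other genes that reached 100 CPM in a cluster, those most like Muc2 were Bcas1 (0.986), Fer1l6 (0.979) and Sytl2 (0.974). Among those most like Muc13 were Gal3st2 (0.980) and Fam3b (0.974), and among those most like Fut2 were Bmp2 (0.845) and B3galt5 (0.829), all 4 highest in cluster 4. The clusters share libraries and ambient RNA, and they are no replicates.

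Clusters outside the goblet-like, Paneth-like and enterocyte-like classes held these transcripts too. Cluster 8, with 413 WT and 9 KO cells of a median of 2809 UMIs, was left unnamed, since its scores for goblet and enterocyte markers lay close together (0.287 and 0.213). It had 166952 CPM of Zg16, 10852 CPM of Muc2, 3468 CPM of Muc13 and 68.8 CPM of Fut2. Cluster 22, an immune-like cluster of 70 cells (21 of them from WT1) with a median of 2902.5 UMIs, had 82656 CPM of Zg16 and 5965 CPM of Muc2. The part of RNA free in the suspension or of doublets in such counts was not tested. Crypt progenitor-like cluster 16, with 227 WT and 4 KO cells, had 39770 CPM of Zg16 and 3560 CPM of Spink4, beside 955 and 137 CPM in crypt progenitor-like cluster 15. Most cells of clusters 8 and 16 were assigned to no mouse and entered no comparison between mice. Cells of cluster 16 assigned to a mouse, most of them from WT2, could enter the crypt gates.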

How the data were processed

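Single-cell 3′ mRNA and hashtag libraries of 1 WT and 1 KO pool, 3 mice each, were analysed. The deposited values are raw UMI counts per gene and barcode. Cell Ranger 7.0.1, Seurat 4.1.0 and the build mm10 are named in the submitters' processing notes, and the handling of introns is not given in the sources used here. The labels mention a further experiment, which was not analysed here.

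Kept barcodes had 1000 or more UMIs, 500 or more genes and no more than 25% of UMIs from mitochondrial genes. HTODemux (from Seurat 5.3.0, run at a quantile of 0.99) gave cells to mice and removed 540 WT and 284 KO doublets. Doublets within a mouse stay in. Clustering used scanpy 1.11.5 (2000 variable genes, 30 components, 15 neighbours, leidenalg 0.10.2, resolution 1) without the 9 genes, interferon-stimulated, antigen-presentation, sex-linked, haemoglobin, ribosomal and mitochondrial genes. The crypt gates took cells with at least 10 Olfm4 UMIs, or at least 5 UMIs of 8 cycling genes, per 10000 UMIs.

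UMI counts were summed per mouse and class and tested in R 4.3.3 by the quasi-likelihood F test of edgeR 4.0.16 (TMM scaling, filterByExpr, Benjamini-Hochberg adjustment over all genes, threshold 0.05). SEs are the log2 fold change over the root of F. Alternatives used DESeq2 1.42.0 and limma 3.58.1. The labels state no pairing. In enterocyte-like cells the deviations of same-numbered mice from their group means correlated at 0.701, 0.885 and 0.671 across genes. The number was therefore used as a replicate block there, although WT1 with KO3 (0.568) and WT3 with KO1 (0.713) correlated as well. Deviations from a group mean cancel out over its mice, so WT2 and KO2 standing apart can alone give the correlations among the other mice. Those do not show pairing by number. Scripts were tested on simulated data.

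The genes and lists were chosen with earlier results of these data known. Named are the 9 genes, the 3 genes most like Muc2, Muc13 and Fut2, and of each list up to 5 called genes by size of change, or abundant ones where none was called. Ifnlr1 and Rsad2 are named besides. Of the genes most like Muc13 and Fut2, 1 each is not reported here.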

Additional observations from a re-analysis of the deposited data

How the results depend on the processing

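In goblet-like cells edgeR called 166 genes, 417 without the filter on low counts, 504 without both mice with hashtag 2, 0 with marker gates and between 63 and 692 with each mouse left out. Same-numbered mice did not deviate together in these cells (0.069, 0.016 and 0.024). The replicate block gave 237 calls with all mice and 81 and 1086 without the mice of hashtag 1 and 2. In enterocyte-like cells 0 genes were called by edgeR, 51 by DESeq2, 8 with marker gates, 1016 without both mice with hashtag 2 and 156 without cluster 14. With the replicate block 1937 were called, 1130 without cluster 14 and 1181, 1455 and 1290 without the mice of hashtag 1, 2 and 3. The cause of these changes was not tested. The interaction between class and genotype called 0 genes under both tools. The difference in goblet-like share was 1.72 percentage points, -0.833 at a mitochondrial limit of 15%, -0.164 with marker gates and between -0.0365 and 3.62 with a mouse left out.

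Of the log2 fold changes of the members, 4 of 162 values under alternatives in goblet-like cells and 22 of 180 in enterocyte-like cells turned sign, none of them called. In goblet-like cells these were Muc2 at -0.0185 without hashtag 2, -0.0184 with the replicate block added and -0.0055 with marker gates, and Clca1 at 0.0583 with the block without hashtag 3. In enterocyte-like cells Muc2 was at -0.687 with marker gates and -0.0043 with the hashtag ratio rule, and between -0.113 and 0.259 with a mouse left out. Tff3 was at -0.461 with marker gates, -0.0136 at 15% mitochondrial UMIs, -0.0366 without hashtag 2, -0.024 with the block added, and between -0.246 and 0.363 with a mouse left out. Fcgbp was at 0.0076 at 15% and 0.287 with the block without hashtag 1, and between -0.365 and 0.263 with a mouse left out. Clca1 was at 0.0403 with the block without hashtag 1 and between -0.462 and 0.0724 with a mouse left out. Agr2 was at 0.0209 at 15%, 0.0869 and 0.104 with the block without hashtag 1 and 3, and between -0.279 and 0.0758 with a mouse left out. Spink4 was at -0.909 with marker gates. The block without each hashtag pair and the fits without cluster 14 were chosen after seeing the data. In goblet-like cells Spink4 was called in 1 of 18 alternatives (0.53, edgeR adjusted p = 0.00158, with the block without hashtag 2, a fit on 2 mice per genotype). The replicate block changed no other call of a member than those in the text. Fut2 in goblet-like cells and in the crypt gates rests on at most 26 UMIs a mouse, too few to show small differences. The test in the crypt gates was not run, for lack of mice.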
